A study of Rattus norvegicus with 170 samples.

Results

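The genes described here are 10 members of the canonical Wnt pathway, which was read as an output of GSK3 inhibition in single cells of rat islets. They are *Ctnnb1*, *Apc*, *Axin1*, *Axin2*, *Lef1*, *Tcf7*, *Tcf7l2*, *Nkd1*, *Lgr5* and *Rnf43*. The members were chosen by gene symbol, for their known place in the pathway, and make up 10 of the 24113 genes in the table. Islets from wild-type male Sprague Dawley rats, 8 weeks old, were cultured for 48 h at 5.5 mM glucose. One set received 0.1% DMSO, the vehicle, and the other 3 μM GNF4877, an aminopyrazine that inhibits the kinases DYRK1A and GSK3B. Dispersed cells were then loaded on Fluidigm C1 chips, where each is kept in a separate chamber. The chambers were viewed by phase contrast microscopy before lysis, and only those seen to hold a single cell were used. The cDNA was made with SMARTer chemistry and sequenced as 50 bp single reads. Levels are in RPM, the reads of a gene scaled to the mapped reads of its cell. They are not divided by transcript length, so levels of different genes are not compared.

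In the absence of a Wnt signal, the scaffold proteins Axin and APC hold β-catenin, the product of *Ctnnb1*, together with the kinases CK1 and GSK3. Phosphorylated β-catenin is then degraded. A Wnt signal or an inhibitor of GSK3 blocks this step, and stabilized β-catenin enters the nucleus and acts with TCF and LEF factors on response genes. Several of these, such as *Axin2*, *Nkd1* and *Rnf43*, encode feedback inhibitors of the same pathway. The control lies on the β-catenin protein, which was not measured here, while transcripts of the response genes are a usual readout. In the pancreas the pathway is known for its part in development and in the growth of islet cells, and *Tcf7l2* is known as a type 2 diabetes susceptibility gene.

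The table holds 86 cells from DMSO and 84 from GNF4877. Depth per cell was between 241604 and 2499138 mapped reads, and the median was 1208304 for DMSO and 1414725 for GNF4877. *Ins1* reached 1000 RPM in 78 DMSO and 59 GNF4877 cells, which are called Ins1-high. The lowest *Ins1* level among them was 1784 RPM in DMSO and 1248 RPM in GNF4877. Of the 59, the 11 cells with the mitotic cyclin *Ccnb1* at 10 RPM or more were called Ccnb1-high (lowest, 19.1 RPM), and the other 48 Ccnb1-low (highest, 6.85 RPM). Cells with *Gcg* of 1000 RPM or more and *Ins1* below 1000 RPM, called α-cells, numbered 5 in DMSO and 18 in GNF4877, with *Ins1* of at most 813 RPM. The remaining 3 DMSO and 7 GNF4877 cells were in neither class.

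Markers that the classes did not use were checked against the names. Of the 8 β-cell markers other than *Ins1*, 7 were in the table, and their summed mean was 23437 RPM in Ins1-high DMSO cells and 18023 RPM in Ins1-high GNF4877 cells, with *Ins2* the most abundant. It was 312 and 128 RPM in the α-cells of DMSO and GNF4877. *Mafa* had reads in Ins1-high DMSO cells and was at 0 in every other group of either treatment. The 8 α-cell markers other than *Gcg* summed to 4169 and 2863 RPM in the α-cells and to 1423 and 1028 RPM in the Ins1-high cells of DMSO and GNF4877, with *Gc* the most abundant. In Ins1-high cells of DMSO and GNF4877, markers of PP-cells summed to 2491 and 759 RPM (mostly *Ppy*), of δ-cells to 106 and 282 RPM (mostly *Sst*) and of duct to 197 and 241 RPM (mostly *Krt7*). Those of immune cells summed to 11.5 and 65.5 RPM (mostly *Cd74*), of endothelial cells to 3.85 and 0.923 RPM and of acinar cells to 2.22 and 0.123 RPM. The medians of these sums were far lower, at 4.56 and 3.18 RPM for PP-cell markers and 1.13 and 1.21 RPM for δ-cell markers. In GNF4877, cell 50 held 41796 RPM of PP-cell markers and cell 37 held 15791 RPM of δ-cell markers, so these means rested on few cells. Another hormone (*Gcg*, *Sst* or *Ppy*) reached 1000 RPM in 25 of the 78 Ins1-high DMSO cells and 4 of the 59 Ins1-high GNF4877 cells.

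With 1 sample per treatment, the cells do not serve as replicates and no test was run. Treatment, chip and lane cannot be told apart. Shares of cells are given with exact Clopper-Pearson 95% intervals, and these and all other intervals cover counting error only. A group ratio past 2-fold means that log2((mean RPM + 1)/(mean RPM + 1)) was at least 1 or at most −1, among genes whose group means averaged at least 1 RPM. Fewer genes were read per cell in GNF4877, with a median of 7031 in Ins1-high GNF4877 cells against 8938 in Ins1-high DMSO cells, or 4901 against 6604.5 after thinning each cell to 100000 reads on the transcripts of the table. Of the Ins1-high cells, thinning left out GNF4877 cell 2 and DMSO cells 48 and 73, which had fewer such reads. Of the cells in neither class it left out DMSO cell 91 and GNF4877 cells 5 and 57. The share of cells with a read was lower in GNF4877 for 81.1% of the 13368 genes tested in this comparison, and by a median of 9.93 percentage points, so the shares of the members were read against that shift.

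Transcripts of *Ctnnb1* were present in most Ins1-high DMSO cells and in a smaller share of the GNF4877 cells, while the mean level was similar in both. The *Ctnnb1* level ranged from 0 to 542 RPM in Ins1-high DMSO cells (median, 45 RPM) and from 0 to 1417 RPM in Ins1-high GNF4877 cells (median, 1.73 RPM). The groups overlapped, and the GNF4877 cells were spread more widely, with more cells at 0. GNF4877 cells 38 (1417 RPM) and 44 (731 RPM) lay above the highest DMSO cell. *Ctnnb1* was read in 70 of 78 DMSO cells, a share of 89.7% (80.8% to 95.5%), and in 34 of 59 GNF4877 cells, a share of 57.6% (44.1% to 70.4%). After thinning the shares were 62 of 76 cells (81.6%) and 27 of 58 cells (46.6%), and the intervals were apart at either depth. The mean was 120.1 RPM in DMSO and 106 RPM in GNF4877, a log2 ratio of −0.17. A single cell, GNF4877 cell 38, held 22.6% of the summed *Ctnnb1* level of its group, and without it the log2 ratio was −0.51. Among cells with a read the median was 71.3 RPM in DMSO and 59.2 RPM in GNF4877. The lower median over all cells thus came with more cells without a *Ctnnb1* read, while the cells with a read differed less.

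*Apc*, which encodes a scaffold of the β-catenin destruction complex, ranged from 0 to 1564 RPM in Ins1-high DMSO cells (median, 192 RPM) and from 0 to 757 RPM in Ins1-high GNF4877 cells (median, 12.3 RPM). It was read in 76 of 78 DMSO cells (97.4%, 91% to 99.7%) and 42 of 59 GNF4877 cells (71.2%, 57.9% to 82.2%), with intervals apart. The thinned shares were 93.4% and 58.6%. The mean *Apc* level was 205 RPM in DMSO and 136 RPM in GNF4877, a ratio of 1.51-fold lower that did not pass 2-fold (log2 ratio −0.59). Unlike *Ctnnb1*, the cells with a read also differed, with a median of 199 RPM in DMSO and 54.6 RPM in GNF4877.

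*Axin1*, the gene of the other scaffold, was read in fewer cells. Its level ranged from 0 to 616 RPM in Ins1-high DMSO cells (median, 0.843 RPM) and from 0 to 434 RPM in Ins1-high GNF4877 cells (median, 0). The share was 40 of 78 cells (51.3%, 39.7% to 62.8%) in DMSO and 16 of 59 (27.1%, 16.4% to 40.3%) in GNF4877. These intervals overlap by less than 1 percentage point. The mean *Axin1* level was 29 RPM against 22.8 RPM, a log2 ratio of −0.34. This was 0.09 without the DMSO cell with the most *Axin1*, and −0.85 without GNF4877 cell 29, the highest of its group.

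Set against all genes, *Ctnnb1* and *Apc* were the 2 of 5 tested members whose share of cells was lower in GNF4877 with intervals apart, and 0 were higher. The share was lower in this way for 21.8% of all tested genes and higher for 0.823%. After thinning these were again the 2 members, against 19% of genes lower and 0.666% higher. The count of members with intervals apart was chosen after their shares were seen. In the mean log2(RPM + 1) per cell, the GNF4877 value minus the DMSO value was −2.63 for *Apc* and −2.04 for *Ctnnb1*, against a median of −0.49 over all tested genes. Only 0.890% of the tested genes had a difference as low as that of *Apc*, and 3.70% as low as that of *Ctnnb1*. The other tested members lay nearer the middle of all genes or above it, with 26.1% of genes as low as *Axin1*, 50.3% as low as *Tcf7* and 71.1% as low as *Rnf43*. By points of share, 7.50% of genes were as low as *Ctnnb1* and 14.8% as low as *Apc*, so their place among all genes depended on the measure. These places were looked up after the values were seen.

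**Figure D1:**
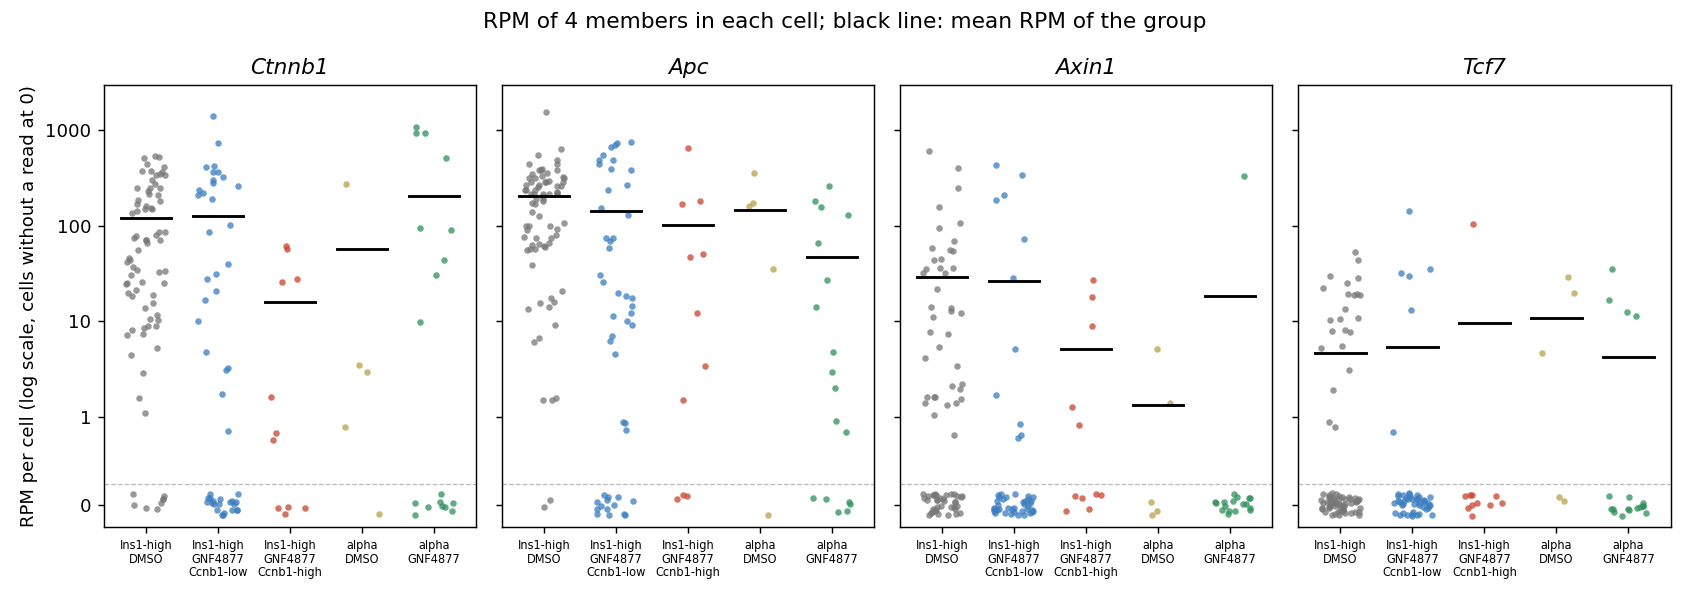
Level of *Ctnnb1*, *Apc*, *Axin1* and *Tcf7* in each cell, in RPM on a log scale with cells without a read drawn at 0 under the dashed line, for Ins1-high DMSO, Ccnb1-low and Ccnb1-high GNF4877 cells and the α-cells of both treatments. Each point is a cell and each black line the mean RPM of a group; most DMSO Ins1-high cells lie above 0 for *Ctnnb1* (70 of 78) and *Apc* (76 of 78), and every group has cells at 0.

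The TCF and LEF factors, through which β-catenin acts on its response genes, were read in few cells. *Tcf7*, which encodes TCF1 and is itself a response gene in some tissues, ranged from 0 to 52.7 RPM in Ins1-high DMSO cells and from 0 to 145 RPM in Ins1-high GNF4877 cells, with a median of 0 in both. It was read in 23 of 78 cells (29.5%, 19.7% to 40.9%) in DMSO and 7 of 59 (11.9%, 4.91% to 22.9%) in GNF4877, and these intervals overlap. The mean was 4.70 RPM against 6.14 RPM, a log2 ratio of 0.33. This ratio rests on GNF4877 cell 68, and without it was −0.26. Fewer GNF4877 cells thus held *Tcf7* reads, and a single cell set the direction of the mean.

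In DMSO the *Tcf7* reads of Ins1-high cells lay mostly in those with *Gcg* of 1000 RPM or more, a split made after the values were seen. *Tcf7* was read in 14 of the 22 Ins1-high DMSO cells with *Gcg* of 1000 RPM or more (63.6%, 40.7% to 82.8%), with a mean of 10.8 RPM. It was read in 9 of the 56 with less *Gcg* (16.1%, 7.62% to 28.3%), with a mean of 2.32 RPM. The intervals were apart, but the share of all genes with intervals apart in this split was not worked out. Nothing particular to *Tcf7* is therefore read from it. The 5 DMSO α-cells also averaged 10.8 RPM of *Tcf7*, with a read in 3 of the 5. The 22 cells with more *Gcg* had a median of 9093.5 genes and 1355291 mapped reads, against 8809 genes and 1182925 reads in the 56 others. After thinning *Tcf7* was read in 10 of 22 and 5 of 54 cells. In GNF4877 only 1 Ins1-high cell had *Gcg* of 1000 RPM, with no *Tcf7* read, against 7 of the 58 others. Leaving out cells with another hormone made the DMSO share of *Tcf7* 15.1%, and the log2 ratio of GNF4877 over DMSO 1.20 in place of 0.33, past 2-fold higher, but 0.61 without GNF4877 cell 68.

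*Tcf7l2*, which encodes TCF4, was read in 5 of 78 Ins1-high DMSO cells (6.41%, 2.11% to 14.3%) and in 1 of 59 Ins1-high GNF4877 cells (1.69%, 0.0429% to 9.09%), where it was 1 read. The DMSO cells held 75.4, 28.1, 7.93, 2.71 and 2.02 RPM of *Tcf7l2*. The first of these, DMSO cell 5, also held 69430.1 RPM of *Gcg*. The mean was 1.49 RPM in DMSO and 0.0109 RPM in GNF4877, 136-fold lower, with a counting interval of 24 to 5431 that leaves out that the DMSO reads came from 5 cells. Without DMSO cell 5 it was 48.4-fold (8.11 to 1971). *Lef1*, the other factor of this family among the members, had 44 reads in 3 of 78 Ins1-high DMSO cells (3.85%, 0.800% to 10.8%) and no read in 59 GNF4877 cells, which allows a share of up to 6.06%. Set against a floor of 3 reads over the group, its mean was at least 18.5-fold lower in GNF4877, or at least 4.17-fold without DMSO cell 24. This bound counts reads only and leaves out that the 44 DMSO reads came from 3 cells. For both factors the intervals of the shares overlap.

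Of the feedback and response genes, *Axin2* is the one most widely used as a reporter of β-catenin activity. It had 73 reads in 4 of 78 Ins1-high DMSO cells (5.13%, 1.41% to 12.6%), at 26.9, 14.5, 6.79 and 1.34 RPM, and 2 reads in 1 of 59 Ins1-high GNF4877 cells (1.69%, 0.0429% to 9.09%), at 0.953 RPM. The mean *Axin2* level was 0.636 RPM in DMSO and 0.0162 RPM in GNF4877, 39.4-fold lower, with a counting interval of 10.5 to 331. Of the 73 reads, 64 were in 2 cells that also held *Gcg* of 1000 RPM or more, DMSO cells 60 and 14. Without DMSO cell 60 the ratio was 18.2-fold (4.66 to 157), and without cells with another hormone the means were 0.153 and 0.0173 RPM, an 8.85-fold ratio (1.83 to 84.2). Without DMSO cell 26 as well it was 1.48-fold (0.0251 to 28.5), so the size of the difference rested on single cells. No rise of *Axin2* transcripts with GNF4877 was therefore detectable, and at most 9.09% of Ins1-high GNF4877 cells held a read within counting error. *Nkd1*, which encodes an inhibitor of Dishevelled, had 13 reads in 2 DMSO cells (10.6 and 1.34 RPM) and none in GNF4877, where its mean was at least 4.14-fold lower. This bound rested on DMSO cell 46, without which the DMSO mean (0.0174 RPM) was under the floor of 3 reads in GNF4877 (0.0369 RPM). *Lgr5*, the gene of an R-spondin receptor and stem cell marker, was read in 0 of all 170 cells.

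*Rnf43* encodes a ubiquitin ligase that removes Frizzled receptors from the cell surface. It was read in 11 of 78 Ins1-high DMSO cells (14.1%, 7.26% to 23.8%) and 3 of 59 Ins1-high GNF4877 cells (5.08%, 1.06% to 14.1%). The mean was 1.78 RPM in DMSO and 1.66 RPM in GNF4877, but a single cell held most of it in each group, DMSO cell 81 (80.4 RPM) and GNF4877 cell 24 (79.99 RPM). The log2 ratio of *Rnf43* was −0.06, and it was −1.09 without the GNF4877 cell and 0.60 without the DMSO cell, so its direction rested on single cells.

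Over all Ins1-high cells, 5 of the 10 members (*Ctnnb1*, *Apc*, *Axin1*, *Tcf7* and *Rnf43*) passed the filter on low levels. Of these, 0 were past 2-fold higher in GNF4877 and 0 past 2-fold lower, against 10.1% of the 13368 tested genes higher and 17.2% lower. Their median log2 ratio was −0.17 and that of all tested genes −0.09. By the difference of mean log2(RPM + 1), the 2 members *Ctnnb1* and *Apc* were past 2-fold lower, and the split over all tested genes was 1.80% higher and 24.6% lower. The share of cells with a read was lower in GNF4877 for 9 of the 10 members, where *Lgr5* had no read, and for each of the 5 tested, against 81.1% of all tested genes. *Ctnnb1* and *Apc* were read together in 69 of 78 DMSO cells and 25 of 59 GNF4877 cells, and neither was read in 1 and 8 cells. Any of the response genes *Axin2*, *Lef1*, *Nkd1*, *Lgr5*, *Rnf43* and *Tcf7* was read in 34 of 78 DMSO cells and 10 of 59 GNF4877 cells. No member was read in a larger share of the GNF4877 cells, in which most genes were read in fewer cells.

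The transcripts of the GSK3 kinases, whose inhibition the members were taken to report, were looked at as well. *Gsk3b* was read in 71 of 78 Ins1-high DMSO cells (91%) and 47 of 59 Ins1-high GNF4877 cells (79.7%), with means of 135 and 205 RPM and medians of 125 and 29.5 RPM. *Gsk3a* was read in 51 (65.4%) and 17 (28.8%) of these cells, with means of 5.26 and 3.11 RPM (log2 ratio −0.61, or −1.04 without GNF4877 cell 48). The higher mean of *Gsk3b* was that of the Ccnb1-low cells (230.0 RPM). In the Ccnb1-high cells its mean was 96.3 RPM, a log2 ratio of −0.48 over DMSO and −1.25 over Ccnb1-low cells. *Gsk3a* was read in 2 of 11 Ccnb1-high cells, with a mean of 1.12 RPM. Its log2 ratio was −1.56 over DMSO and −1.11 over Ccnb1-low cells, and the latter was −0.62 without the highest Ccnb1-low cell. Kinase activity was not measured.

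**Figure D2:**
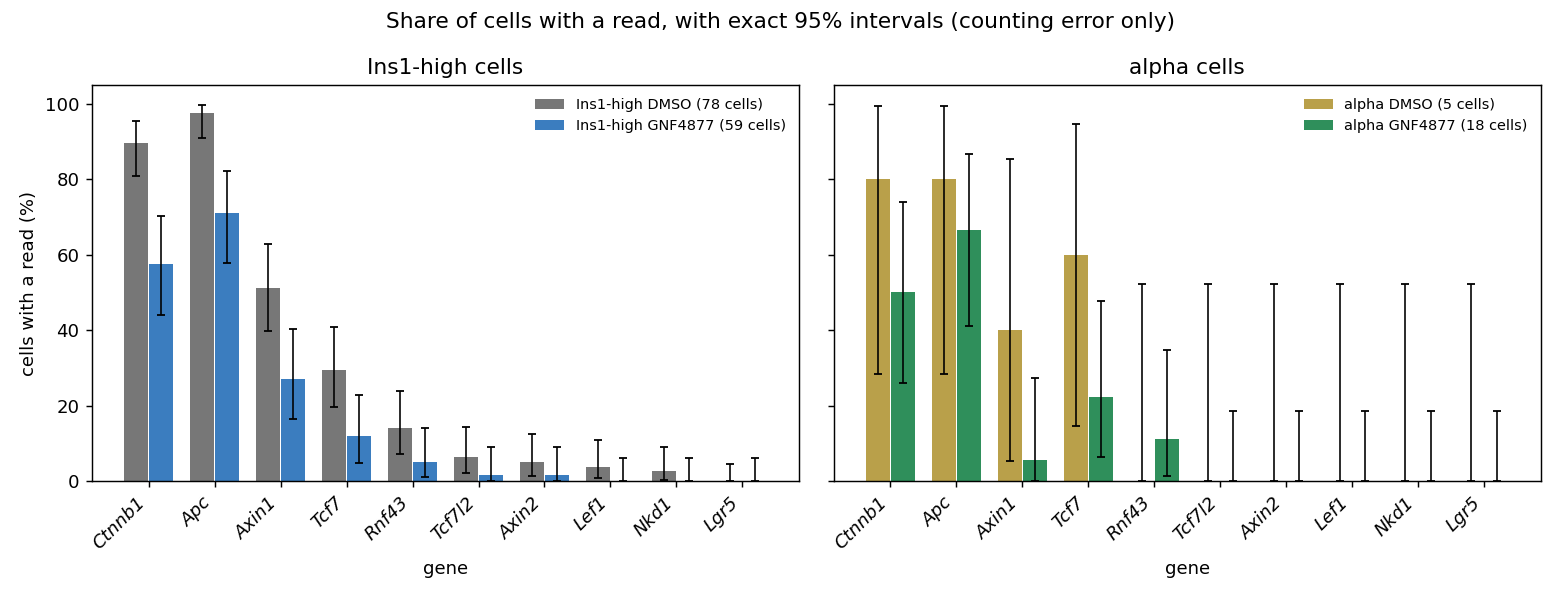
Share of cells with at least 1 read of each member, in percent, in Ins1-high cells and α-cells of DMSO and GNF4877. Bars are shares and error bars exact 95% intervals for counting error; in Ins1-high cells the intervals of *Ctnnb1* (89.7% against 57.6%) and *Apc* (97.4% against 71.2%) are apart.

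The GNF4877 cells were then divided by *Ccnb1*, to describe the members in cells with transcripts of the G2 and M phases and in the others. In the 11 Ccnb1-high cells *Ctnnb1* was low. It ranged from 0 to 61.3 RPM, with a median of 0.683 RPM and a mean of 15.9 RPM, while in the 48 Ccnb1-low cells it ranged from 0 to 1417 RPM, with a median of 3.16 RPM and a mean of 127 RPM. A *Ctnnb1* read was found in 7 of 11 (63.6%, 30.8% to 89.1%) and 27 of 48 cells (56.2%, 41.2% to 70.5%), and after thinning in 3 of 11 (27.3%) and 24 of 47 cells (51.1%), with intervals that overlap at either depth. Of the 15 Ins1-high GNF4877 cells with 100 RPM or more of *Ctnnb1*, 0 were Ccnb1-high. The mean of the Ccnb1-high cells was 7.99-fold lower than that of the Ccnb1-low cells (log2 ratio −2.92) and 7.54-fold lower than that of the Ins1-high DMSO cells (−2.84). Leaving out any single cell kept these log2 ratios between −3.37 and −2.57 and between −3.29 and −2.71. The lower mean depended on the limit set for *Ccnb1*. With any *Ccnb1* read as the limit, 19 cells averaged 92.9 RPM of *Ctnnb1*, and the log2 ratios were −0.28 and −0.37. GNF4877 cell 38, with 1417 RPM of *Ctnnb1* and *Ccnb1* at 0.625 RPM, was among the 19, and the other 18 averaged 19.3 RPM.

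*Axin1* also had a lower mean in the Ccnb1-high cells. It ranged from 0 to 26.9 RPM with a mean of 5.11 RPM and was read in 5 of 11 cells, against 0 to 434 RPM, a mean of 26.8 RPM and 11 of 48 cells in the Ccnb1-low cells, with a median of 0 in both. The mean was 5.25-fold lower than in Ccnb1-low cells (log2 ratio −2.19) and 5.68-fold lower than in Ins1-high DMSO cells (−2.30). By the difference of mean log2(RPM + 1), *Axin1* was instead higher in the Ccnb1-high than the Ccnb1-low cells, by 0.27. With any *Ccnb1* read as the limit the log2 ratios of the mean were −0.71 and −0.86, short of 2-fold. *Rnf43* was read in 0 of 11 Ccnb1-high cells and 3 of 48 Ccnb1-low cells, at least 11.5-fold lower by the floor of 3 reads (log2 ratio −1.60). Without GNF4877 cell 24 this log2 ratio was −0.47.

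*Apc* and *Tcf7* did not pass 2-fold between these groups. *Apc* ranged from 0 to 656 RPM in Ccnb1-high cells and from 0 to 757 RPM in Ccnb1-low cells, with medians of 12.2 and 13.4 RPM, and was read in 8 of 11 and 34 of 48 cells. Its mean was 102 and 144 RPM, a log2 ratio of −0.49. GNF4877 cell 17 held 58.3% of the Ccnb1-high level of *Apc*, and without it the log2 ratio was −1.59 against the Ccnb1-low cells and −2.10 against the DMSO cells, in place of −0.99. The latter lay close to 2-fold and was past it, at −1.03, with RPM taken over reads on listed transcripts. *Tcf7* was read in 1 Ccnb1-high cell, GNF4877 cell 78, at 106 RPM, and in 6 Ccnb1-low cells. Its log2 ratio of 0.74 between them, and of 0.90 against the DMSO cells, became −2.67 and −2.51 without that cell. They were 1.65 without GNF4877 cell 68, a Ccnb1-low cell, and 1.06 without DMSO cell 51, past 2-fold higher. The 2 *Axin2* reads of the Ins1-high GNF4877 cells were in GNF4877 cell 17, a Ccnb1-high cell. *Lef1*, *Nkd1* and *Tcf7l2* had no read in Ccnb1-high cells, and a share of up to 28.5% is allowed by 0 of 11.

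In Ccnb1-high over Ins1-high DMSO cells, 4 members passed the filter, 0 were higher and 2 lower (*Ctnnb1* and *Axin1*), against 15.4% of 13136 genes higher and 31.1% lower. On the scale of mean log2(RPM + 1) the split over all genes was 6.98% and 26.3%, and the members lower were *Ctnnb1* (−3.09) and *Apc* (−2.81), while *Axin1* (−0.74) was not. In Ccnb1-high over Ccnb1-low cells, 5 members were tested, 0 were higher and 3 lower (*Ctnnb1*, *Axin1* and *Rnf43*), against 17% of 12540 genes higher and 24% lower. *Rnf43* was tested and called there through GNF4877 cell 24 alone, without which its mean was under the filter. On that scale the split was 13.8% and 6.46%, and 1 member was lower (*Ctnnb1*). In Ccnb1-low over Ins1-high DMSO cells, 5 members were tested, with 0 higher and 0 lower (1 lower, *Rnf43* at −1.01, with GNF4877 cell 24 left out), against 9.21% of 13265 genes higher and 19.2% lower, or 1.33% and 25.7% on the scale of mean log2(RPM + 1), where 3 members were lower (*Ctnnb1*, *Apc* and *Axin1*). The 3 comparisons share cells. The median log2 ratio of the tested members was −1.65, −1.60 and 0.08 in these comparisons, and that of all tested genes −0.28, −0.09 and −0.13. The value of −1.60 is the log2 ratio of *Rnf43* itself, so this median also rests on GNF4877 cell 24.

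α-Cells, which also contain GSK3, were read for the same members, with only 5 cells in DMSO. *Ctnnb1* was 278, 3.49, 2.96, 0.782 and 0 RPM in the 5 DMSO α-cells, and ranged from 0 to 1078 RPM in the 18 GNF4877 α-cells, with a median of 4.97 RPM. Of these, GNF4877 cells 84, 66, 9 and 27 held 1078, 935, 931 and 513 RPM, above every DMSO α-cell, and the other 14 overlapped with the DMSO cells. *Ctnnb1* was read in 4 of 5 cells (80%, 28.4% to 99.5%) and 9 of 18 cells (50%, 26% to 74%). The mean was 57 RPM in DMSO and 207 RPM in GNF4877, a log2 ratio of 1.84. It was 6.21 without DMSO cell 94, which held 97.5% of the DMSO level, and 1.43 without the highest GNF4877 α-cell. The ratio was above 2-fold with any single cell left out, and its size rested on DMSO cell 94.

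*Apc* went the other way in α-cells. It was 360.0, 174, 159.9, 35.7 and 0 RPM in the DMSO α-cells and 0 to 261 RPM in the GNF4877 α-cells, with a median of 2.46 RPM, and was read in 4 of 5 and 12 of 18 cells (66.7%, 41% to 86.7%). The mean was 146 RPM and 47.3 RPM, a log2 ratio of −1.61, which was −0.95 without DMSO cell 94. *Tcf7* was 29.2, 20.04, 4.69, 0 and 0 RPM in the DMSO α-cells and was read in 4 of 18 GNF4877 α-cells, up to 35.3 RPM, with means of 10.8 and 4.23 RPM (log2 ratio −1.17, or −0.46 without DMSO cell 94). After thinning this log2 ratio was 1, so its direction depended on depth. *Axin1* was 5.20 and 1.39 RPM in 2 DMSO α-cells and 331 RPM in 1 GNF4877 α-cell, cell 94, with a log2 ratio of 3.07 that was −1.21 without that cell. GNF4877 cell 94 held 5 members, with *Ctnnb1* at 30.9 RPM, *Apc* at 261 RPM, *Tcf7* at 35.3 RPM and *Rnf43* at 11.8 RPM beside *Axin1*. Of all α-cells, only this cell and GNF4877 cell 58 (4.97 RPM) had *Rnf43* reads.

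*Axin2*, *Lef1*, *Tcf7l2*, *Nkd1* and *Lgr5* had no read in any α-cell, and 0 of 5 and 0 of 18 allow shares of up to 52.2% and 18.5%. Of the 4 members tested in α-cells, 2 were past 2-fold higher (*Ctnnb1* and *Axin1*) and 2 lower (*Apc* and *Tcf7*), against 34.9% of 11889 genes higher and 23.8% lower. *Axin1* was tested and called there through GNF4877 cell 94 alone. Without that cell its means were 0 in GNF4877 and 1.32 RPM in DMSO, under the filter. On the scale of mean log2(RPM + 1) the split over all genes was 10.8% and 31%, and *Ctnnb1* (1.04) was higher and *Apc* (−2.78) and *Tcf7* (−1.43) lower, while *Axin1* (−0.31) was neither.

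Across the groups, the median of *Ctnnb1* was highest in Ins1-high DMSO cells (45 RPM), followed by GNF4877 α-cells (4.97 RPM), Ccnb1-low cells (3.16 RPM), DMSO α-cells (2.96 RPM) and Ccnb1-high cells (0.683 RPM). By the mean the GNF4877 α-cells came first (207 RPM), then the Ccnb1-low cells (127 RPM), the Ins1-high DMSO cells (120.1 RPM), the DMSO α-cells (57 RPM) and the Ccnb1-high cells (15.9 RPM). The mean of the DMSO α-cells rested on DMSO cell 94 and was 1.81 RPM without it, under that of the Ccnb1-high cells, and with any *Ccnb1* read as the limit the Ccnb1-high mean was 92.9 RPM. The order of means thus depended on single cells and on that limit, and the ranges of all neighbours overlapped, since each group had cells at 0. For *Apc* the order of medians was Ins1-high DMSO (192 RPM), DMSO α-cells (159.9 RPM), Ccnb1-low (13.4 RPM), Ccnb1-high (12.2 RPM) and GNF4877 α-cells (2.46 RPM). Both DMSO groups thus stood above the GNF4877 groups in the median of *Apc*.

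Transcripts of *Lef1* and *Nkd1* lay in cells that also held transcripts of mesenchymal cells. The 8 mesenchymal markers (*Col1a1*, *Col1a2*, *Col3a1*, *Pdgfra*, *Pdgfrb*, *Sparc*, *Acta2* and *Lum*) summed to 3585 RPM or more in 5 of the 170 cells and to 112 RPM or less in the other 165. The 5 were the Ins1-high DMSO cells 24 (10901 RPM) and 46 (12917 RPM), DMSO cell 29 (9728 RPM, with *Ppy* at 45020.5 RPM), GNF4877 α-cell 42 (3585 RPM) and GNF4877 cell 15 (19724 RPM). *Lef1* was read in 3 of these 5 cells and 1 of the other 165, and the 5 held 95.2% of its summed level. *Nkd1* was read in 3 of 5 cells and 0 of 165, and *Tcf7l2* in 4 of 5 and 6 of 165. *Axin2* was read in 2 and 4 cells, and *Rnf43* in 0 of 5 and 16 of 165. Single cells were thus the source of most *Lef1* and *Nkd1* reads, and *Rnf43* was found elsewhere.

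These cells set the mean of the marker list. Its mean sum was 310 RPM in Ins1-high DMSO cells, nearly all from DMSO cells 24 and 46, with *Col1a1* most abundant (83.7 RPM). It was 1.16 RPM in Ins1-high GNF4877 cells, and the medians were 1.62 and 0.732 RPM. In α-cells the mean sum was 2.96 RPM in DMSO and 199.7 RPM in GNF4877, nearly all from GNF4877 cell 42. Without DMSO cells 24 and 46, left out after the data were seen, *Lef1* was read in 1 of 76 Ins1-high DMSO cells (3 reads, 0.0398 RPM), *Nkd1* in 0 of 76 (up to 4.74%), *Tcf7l2* in 3 of 76 (1.05 RPM) and *Axin2* in 3 of 76. No lower level of *Lef1* and *Nkd1* in GNF4877 was then detectable. *Ctnnb1* and *Apc* were hardly altered, at 68 of 76 cells (122 RPM) and 74 of 76 cells (204 RPM). DMSO cell 46 was also the only Ins1-high DMSO cell with *Ccnb1*, at 49.4 RPM.

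**Figure D3:**
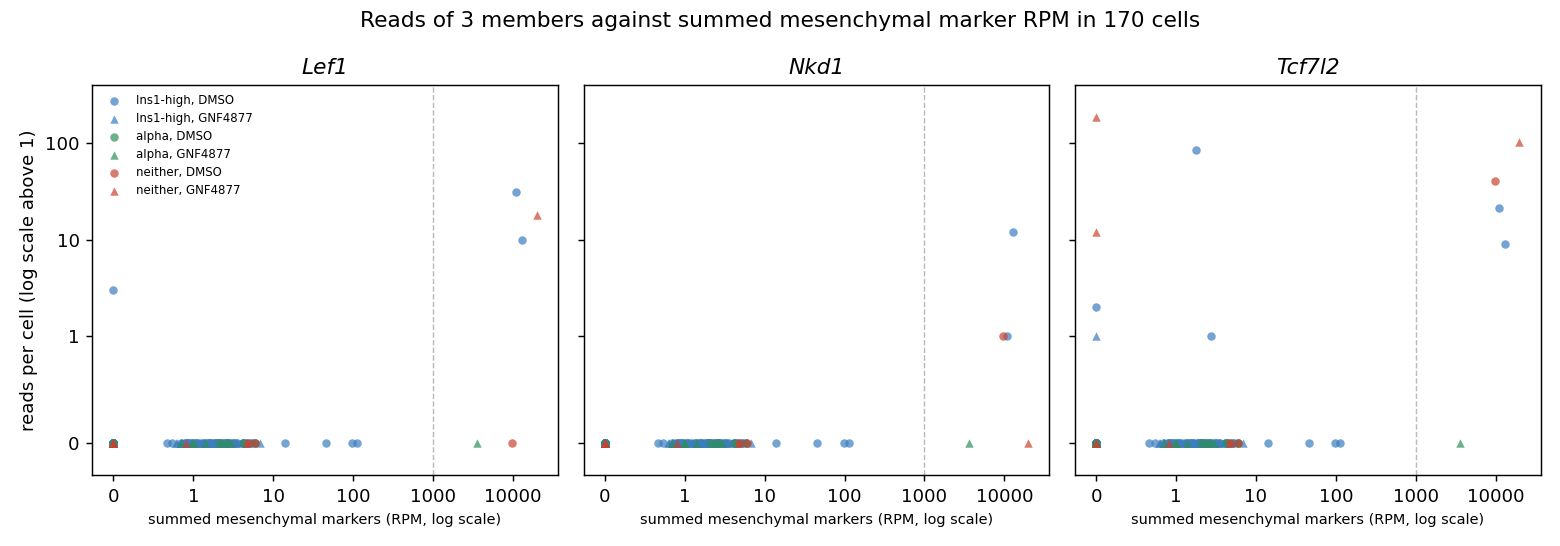
Reads of *Lef1*, *Nkd1* and *Tcf7l2* in each of the 170 cells against the summed RPM of the 8 mesenchymal markers. The dashed line marks 1000 RPM; the 5 cells beyond it include 3 of the 4 cells with *Lef1* reads and the 3 cells with *Nkd1* reads.

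The other genes of the pathway were described by lists of their roles, with 120 genes in the table and 75 tested in Ins1-high cells. Of these, 5 (6.67%) were past 2-fold higher in GNF4877 and 27 (36%) lower, with a median log2 ratio of −0.70, against 10.1% and 17.2% of all tested genes and a median of −0.09. With the highest cell of the higher group left out for each gene, 0 of the 5 and 19 of the 27 were still past 2-fold, as were 44.8% and 69.2% of all genes so called. The 8 lower genes that were not, read off after their values were seen, were *Dvl3*, *Dkk3*, *Tnks2*, *Rnf146*, *Ccdc80*, *Tle3* (−0.90), *Ep300* (−0.97) and *Nkd2* (0). The counts above are for the ratio of means, and single genes differed on the scale of mean log2(RPM + 1). On that scale 1.80% of all tested genes were higher and 24.6% lower, with a median of −0.49. Counts of pathway genes are not given on it, so whether their larger share of lower genes holds there is not known. There *Wnt4* (−1.73) and *Frzb* (−1.79) were again past 2-fold lower, and *Porcn* (−0.40), *Lrp5* (−0.51), *Dvl3* (−0.24) and *Dkk3* (−0.16) were not. *Lrp6* (−2.37), *Wif1* (−2.30), *Csnk1a1* (−1.69) and *Ryk* (−1.08), named after their values were seen, were past 2-fold lower there without being among the 27.

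In Ccnb1-high over DMSO cells 5 of 73 pathway genes were higher and 38 lower (6.85% and 52.1%, against 15.4% and 31.1% of all tested genes). The 5 were *Lgr4* and, named after their values were seen, *Birc5*, *Pygo2*, *Wnt3* and *Sfrp5*. Without the highest Ccnb1-high cell the log2 ratios of *Wnt3* and *Sfrp5* turned from 1.5 to −0.69 and from 1.19 to −0.34. With the highest cell of the higher group left out, 3 of the 5 and 33 of the 38 were still past 2-fold, as were 33.5% and 86.4% of all genes so called. In Ccnb1-low over DMSO cells 6 of 75 were higher and 26 lower (8% and 34.7%, against 9.21% and 19.2%), of which 0 of 6 and 19 of 26 were still past 2-fold without the highest cell, as were 38.2% and 71.7% of all genes so called. In Ccnb1-high over Ccnb1-low cells 6 of 63 were higher and 19 lower (9.52% and 30.2%, against 17% and 24%), of which 2 of 6 and 11 of 19 were still past 2-fold without it, as were 29.5% and 65.2% of all genes so called. In α-cells 15 of 63 were higher and 23 lower (23.8% and 36.5%, against 34.9% and 23.8%). With the highest cell left out as above, 8 of the 15 and 12 of the 23 were still past 2-fold, as were 51.5% and 30.3% of all genes so called.

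The counts by role that follow are for all Ins1-high GNF4877 over Ins1-high DMSO cells. Of all tested genes there, 10.1% were higher and 17.2% lower. Among the ligands and their processing enzymes, 7 of 25 genes were tested, 0 were higher and 2 lower. *Wnt4*, the Wnt ligand that was lower, was read in 39 of 78 Ins1-high DMSO cells and 3 of 59 Ins1-high GNF4877 cells, at means of 13.6 and 0.786 RPM (log2 ratio −3.03). *Porcn*, which encodes the acyltransferase that lipid-modifies Wnt proteins, was the other (−2.67). Of the receptors and Dishevelled proteins, 10 of 20 were tested, with 2 higher and 2 lower, against 10.1% and 17.2% of all tested genes. *Lgr4*, an R-spondin receptor gene, averaged 12.9 and 31 RPM (1.21), and *Dvl1*, of a Dishevelled protein, 6.25 and 14.1 RPM (1.06), but without the highest GNF4877 cell these log2 ratios were 0.87 and 0.73. By the difference of mean log2(RPM + 1) they were at −0.005 and −0.07, so not higher. *Lgr4* was read in 34 of 78 DMSO and 20 of 59 GNF4877 cells, and *Dvl1* in 24 and 17. The lower ones were the co-receptor gene *Lrp5* (−1.60) and *Dvl3* (−1.35, or −0.53 without the highest DMSO cell).

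Of 13 genes of secreted antagonists 7 were tested, with 0 higher and 2 lower. *Frzb*, which encodes a secreted Frizzled-related protein that binds Wnts, was read in 43 of 78 and 12 of 59 cells, at 49.9 and 12 RPM (−1.97). The other, named after its values were seen, was *Dkk3* (−1.80, or −0.70 without the highest DMSO cell). In the list of the destruction complex and its turnover 13 of 14 genes were tested, with 1 higher and 5 lower. The tankyrase genes *Tnks* (−2.14) and *Tnks2* (−1.06) and *Rnf146* (−1.09), whose products mark Axin for degradation, were lower. *Tnks* was read in 46 of 78 DMSO cells and 4 of 59 GNF4877 cells. *Fbxw11*, of a ubiquitin ligase subunit that recognizes phosphorylated β-catenin, averaged 23.7 and 5.86 RPM (−1.85) and was read in 75 of 78 and 58 of 59 cells. Named after their values were seen, *Amer1* was the fifth lower gene (−1.83) and *Apc2* the higher one (1.85, or −0.66 without the highest GNF4877 cell). Without the highest DMSO cell, *Tnks2* and *Rnf146* were each at −0.96, short of 2-fold.

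Nuclear partners of β-catenin had the lowest median of the lists in this comparison, −1.04. Of 17 genes 14 were tested, with 0 higher and 8 lower, against 10.1% and 17.2% of all tested genes. In Ccnb1-high over DMSO cells the medians of further response genes (−1.97), receptors (−1.70) and the destruction complex (−1.33) were below theirs (−1.30). In α-cells that of further response genes was lower (−1.11 against −1.03), as in Ccnb1-high over Ccnb1-low cells (−0.97 against −0.07). *Ctnnbip1*, whose product blocks the binding of β-catenin to TCF factors, averaged 25.8 and 2.34 RPM (−3.00). The corepressor genes *Tle2* (−2.37) and *Tle4* (−1.85) and the coactivator gene *Bcl9* (−1.78) were lower as well, so that both positive and negative partners were among the 8. Without the highest DMSO cell the log2 ratios of *Tle2*, *Tle4* and *Bcl9* were −1.30, −1.29 and −1.36. Of the 6 cadherin partners, 0 were higher and 1 lower, the N-cadherin gene *Cdh2* (22.1 and 9.04 RPM, −1.20). The list median was −0.11. Both lay near the values of all tested genes, of which 10.1% were higher and 17.2% lower, with a median of −0.09.

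Of 25 further response genes 18 were tested, with 2 higher and 7 lower and a median of −0.77. *Cd44*, which encodes a hyaluronan receptor, was higher (9.93 and 76.7 RPM, 2.83), but its log2 ratio was 0.43 without the highest GNF4877 cell. *Id2* (−1.81), *Dact2* (−1.71) and *Vegfa* (−1.49) were lower. *Id2* was read in 70 of 78 and 23 of 59 cells, and *Vegfa* in 78 of 78 and 57 of 59 cells at 194 and 68.3 RPM. *Ccdc80* was lower (−2.17) through 1 DMSO cell, and was at 0.37 without it. The other higher gene, *Birc5* (0.890 and 3.58 RPM, 1.28), was named after its values were seen and was at 0.78 without the highest GNF4877 cell.

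Because several members are response genes of TCF factors, the promoters of the members were searched for the letters CTTTGAT, the core of the TCF and LEF motif, on both strands (ATCAAAG on the other). RefSeq sequences of build GRCr8 were given for 8 of the 10 members (not for *Axin1* and *Lgr5*). In the 250 bases before the start the letters were found in 2 of these 8, *Axin2* and *Nkd1*, and in 1054 of 33469 promoters (3.15%). They were not found for the response genes *Lef1*, *Tcf7* and *Rnf43*, nor for *Ctnnb1*, *Apc* and *Tcf7l2*. In *Axin2* they lie 132 bases before the start, in chr10:94398626-94398686 on the + strand, and in *Nkd1* 141 bases before it, in chr19:34722954-34723014 on the − strand. Both stretches are shown from 5′ to 3′ on the strand of the gene, with the match in capitals.
Axin2: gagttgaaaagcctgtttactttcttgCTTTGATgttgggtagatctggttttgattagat
Nkd1: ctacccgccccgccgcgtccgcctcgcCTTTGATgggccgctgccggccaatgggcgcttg
A match is a description of the sequence, and binding was not measured.

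For the members read in at least 50% of Ins1-high cells, the genes with the most similar levels across cells were listed by Spearman's rho, averaged over the 78 DMSO and 59 GNF4877 cells. For *Ctnnb1* these were *Dcaf7* (0.42), *Vps13a* (0.36) and *Coa3* (0.35), against a median of 0.0746 over the 7491 genes ranked. For *Apc* they were *RGD1304595* (0.39), *LOC691921* (0.39) and *Agap1* (0.37), against a median of 0.0680. *Ctnnb1* and *Apc* themselves had a rho of 0.36 in DMSO and 0.0475 in GNF4877 cells. The cells of a treatment share chip and lane, and *Ctnnb1* had a rho of 0.25 and *Apc* of 0.20 with the number of genes read per DMSO cell, so that these weak relations are given as description.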

How the data were processed

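Single cells were sequenced as 50 bp single reads, and the authors processed them with CASAVA 1.8.2, BWA 0.5.9 and SAMtools 0.1.19. The values deposited are RPM, in which the reads of each transcript are scaled to all those mapped in its cell. The reference in their methods is the transcriptome of the mouse, whereas the 27586 transcripts of the table are rat RefSeq entries. Of these, 17365 have an accession in the RefSeq gene table of GRCr8. All columns belong to a sample (0 were not mapped).

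Values at the floor of 0.01 (69.7% of values) were set to 0, and the transcripts of a symbol were summed (9 members have 1 transcript, *Nkd1* several). Whole reads were worked out from the smallest step in each cell (100.0% of values up to 20 reads were within 0.1 of a whole read). Cells were thinned to 100000 reads on the transcripts of the table by seeded draws without replacement. The ratio used a pseudocount of 1 RPM. For a gene without reads in a group, the floor was 3 reads summed over its cells. With 1 sample per treatment no test was run, and no count model was fitted. No filter for doublets was added to the microscopy of the authors.

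The genes named were the 10 members, *Ins1*, *Gcg*, *Ccnb1*, *Gsk3a* and *Gsk3b*, the 3 genes most like each member read in at least 50% of Ins1-high cells, and up to 4 highest and 4 lowest genes past 2-fold of each pathway list among those read in at least 10% of the cells of the higher group. Members and lists were chosen with earlier results of these data known. Marker lists covered β-, α-, δ- and PP-cells and duct, acinar, endothelial, mesenchymal and immune cells. Alternatives were the pseudocount, the scale, the depth, the thresholds, the cells left out and the filter on low values. The steps were tested on simulated data with counting error only and no other spread between cells. That check therefore does not cover calls that rest on single cells. Scripts ran under Python 3.11.15 with pandas 2.3.3, matplotlib 3.10.9, numpy 2.4.6 and scipy 1.17.1.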

Additional observations from a re-analysis of the deposited data

Results flagged for a closer look

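The 10 cells that were neither Ins1-high nor α-cells entered no comparison, and 4 members had a higher mean in the 7 GNF4877 cells than in the 3 DMSO cells of this kind. *Apc* averaged 140.2 RPM in these GNF4877 cells and 38.3 RPM in the DMSO cells, with 714 RPM in GNF4877 cell 33, a cell with *Ppy* at 30112 RPM. *Axin1* averaged 0.181 RPM, from 2 reads in GNF4877 cell 49, and had no read in the 3 DMSO cells. *Lef1* averaged 1.39 RPM, from 18 reads in GNF4877 cell 15, the cell with the highest sum of mesenchymal markers, and again had no read in the DMSO cells. *Tcf7l2* averaged 30.4 RPM in GNF4877 and 10.5 RPM in DMSO. It was found at 117 RPM in GNF4877 cell 49, which held *Sst* at 35288 RPM, at 55.3 RPM in cell 15 and at 40.2 RPM in cell 5, and at 31.6 RPM in DMSO cell 29. Of the other members, *Ctnnb1* (111.6 RPM in DMSO and 31.9 RPM in GNF4877), *Axin2* (1.84 RPM and 0) and *Nkd1* (0.263 RPM and 0) were higher in the DMSO cells, and *Tcf7*, *Lgr5* and *Rnf43* had no read in either. *Apc* was read in 3 of 3 DMSO and 3 of 7 GNF4877 cells, and its mean log2(RPM + 1) was 3.44 and 3.15, so that its direction depended on the scale. These cells were singled out after their values were seen, and the differences were not tested.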

How the results depend on the processing

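No paired analysis was possible because the cell numbers in the labels only name cells and each treatment is 1 sample. The log2 ratios of all 10 members were followed across settings, also below the filter. Those of members without a read in both groups, such as *Lgr5*, are 0 and could not move, which adds to the unmoved. Of the log2 ratios of members, 575 moved by no more than 1.5-fold across the settings tried, 91 by more, and 4 that were past 2-fold changed sign. These 4 were *Axin1* in Ccnb1-high over Ccnb1-low cells by the difference of mean log2(RPM + 1) (0.27), *Axin1* in α-cells by that difference (−0.31) and with a cell left out (from −1.21 to 3.85), and *Tcf7* in α-cells at 100000 reads (1). The difference of mean log2(RPM + 1) also moved the median of all tested genes, from −0.09 to −0.49 in Ins1-high cells and from 0.27 to −0.40 in α-cells. Counts of members past 2-fold kept within 1.5-fold in 64 of 72 cases for higher and 57 of 72 for lower. For all Ins1-high cells the count lower was 2 by the difference of means of logs (*Ctnnb1* and *Apc*), 1 without a filter (*Tcf7l2*) and 0 to 1 with a cell left out, and the count higher was 1 (*Tcf7*) without cells with another hormone. For Ccnb1-high over DMSO cells the count higher was 1 with a pseudocount of 0.1 RPM, 1 without cells with another hormone and 0 to 1 with a cell left out, *Tcf7* each time. There the count lower was 4 at *Ins1* of 10000 RPM, 1 with any *Ccnb1* read (*Apc*) and 4 without a filter, and it was 3 with RPM over reads on listed transcripts (*Apc* added), without cells with another hormone (*Rnf43* added) and without cells with few such reads (*Apc* added). For Ccnb1-low over DMSO cells the count higher was 1 without cells with another hormone, and the count lower was 3 by the difference of means of logs, 1 without a filter and 0 to 1 with a cell left out. For Ccnb1-high over Ccnb1-low cells the count higher was 0 to 1 with a cell left out, and the count lower was 1 by the difference (*Ctnnb1*) and 1 with any *Ccnb1* read (*Rnf43*). For α-cells the count higher was 1 by the difference and 1 to 2 with a cell left out, and the count lower was 1 with a pseudocount of 10 RPM, 1 at 100000 reads, 1 without cells with another hormone and 0 to 2 with a cell left out. More genes are tested when no filter is set, and a pseudocount of 10 RPM pulls low levels together. The cause of the other moves was not tested. The background percentages without a filter kept within 1.5-fold in each comparison and direction. With a pseudocount of 10 RPM they fell past that in each, to 3.49% higher and 4.38% lower in Ins1-high cells, 9.01% and 12.5% in Ccnb1-high over DMSO, 3.01% and 5.01% in Ccnb1-low over DMSO, 9.22% and 9.73% in Ccnb1-high over Ccnb1-low cells and 19% and 13.9% in α-cells.

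Of the shares of cells with a read, 220 stayed inside the interval of the main value and 24 did not. At 10 RPM or more, which fewer cells reach by construction, *Ctnnb1* was in 75.6% of Ins1-high DMSO cells and 20% of DMSO α-cells, *Apc* in 89.7% of Ins1-high DMSO, 55.9% of Ins1-high GNF4877 and 38.9% of GNF4877 α-cells, and *Axin1* in 29.5% of Ins1-high DMSO, 13.6% of Ins1-high GNF4877 and 0 of the DMSO α-cells. *Tcf7* was then in 17.9% and *Rnf43* in 5.13% of Ins1-high DMSO cells. At 100000 reads *Ctnnb1* was in 27.3% of Ccnb1-high cells, *Axin1* in 31.6% of Ins1-high DMSO cells and 0 of the DMSO α-cells, and *Rnf43* in 3.95% of Ins1-high DMSO cells. In both settings *Axin2* was in 0 of the Ins1-high GNF4877 and Ccnb1-high cells and *Tcf7l2* in 0 of the Ins1-high GNF4877 and Ccnb1-low cells. Without cells with another hormone *Tcf7* was in 15.1% of Ins1-high DMSO cells. Without cells with mesenchymal markers, an alternative chosen after seeing the data, *Nkd1* was in 0 of these. *Ctnnb1* and *Apc* had intervals apart between Ins1-high DMSO and GNF4877 cells in each of these settings. Of all tested genes, 21.8% were lower with intervals apart in the main setting and 19% at 100000 reads. For the other settings the share over all genes is not given. Depth limits what can be said of *Axin2*, *Lef1*, *Nkd1*, *Tcf7l2* and *Lgr5*, which had few reads or none.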

Other observations

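*Tcf7l2* was higher in cells outside the Ins1-high and α-cell classes than in them. It was read in 3 of the 7 GNF4877 and 1 of the 3 DMSO cells in neither class, and in 0 of the 23 α-cells. Among the former, DMSO cell 29 and GNF4877 cell 15 held mesenchymal markers (9728 and 19724 RPM). GNF4877 cell 5 held 6669 RPM of acinar markers and had 13.1% of its mapped reads on listed transcripts. In GNF4877, cells 15 and 49, which held the most *Tcf7l2*, also held *Ccnb1* at 608 and 1460 RPM.

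In 7 cells between 2.65% and 18.9% of mapped reads lay on listed transcripts, against 76.4% to 99.0% in the others. They were DMSO cells 48, 73, 80 and 91 and GNF4877 cells 2, 5 and 57, of which DMSO cells 48, 73 and 80 and GNF4877 cell 2 were Ins1-high. Leaving them out, an alternative chosen after seeing the data, took *Apc* in Ccnb1-high over Ins1-high DMSO cells from −0.99 to −1.05, so that 3 members in place of 2 were past 2-fold lower there. The other counts of members past 2-fold were the same numbers.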
